A study of Mus musculus with 6 samples.

Results

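Integrins and the other receptors that bind cells to the extracellular matrix were followed in regenerating muscle, as 9 genes out of the 12436 listed for each cell. The genes were chosen by name: the integrin α subunits Itga1, Itga5, Itga6, Itga7 and Itgav, the shared β subunit Itgb1, the hyaluronan receptor Cd44, the heparan sulfate proteoglycan Sdc4 (syndecan-4), and the dystroglycan gene Dag1. All 9 had values in all 6 libraries.

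Single-cell RNA sequencing had been done on tibialis anterior muscle (TAM) of male mice aged 3 to 5 months, kept on a control diet or made hypothyroid with a low-iodine diet containing 0.15% propylthiouracil (PTU), a drug that blocks thyroid hormone synthesis. All 6 groups shared a genotype: on a B6;129 background, the mice carried the Fucci2aR cell cycle reporter in the Gt(ROSA)26Sor locus, and the study's methods state that animals without Cre were used. Muscle was taken uninjured (0 dpi) or at 5 or 14 days after injection of cardiotoxin (CTX, 50 μg/ml), a snake venom toxin that kills muscle fibers. There was 1 library for each diet and day, made from pooled mice, so no difference between diets or days was tested and no p-value could be had.

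Integrins are pairs of an α and a β chain that hold matrix proteins outside the cell and the actin cytoskeleton inside it. The β1 chain pairs with each of the α chains described here, and the α chain sets the ligand: collagens for α1, fibronectin for α5, laminins for α6 and α7, and proteins with an RGD motif for αv. In muscle, α7 and dystroglycan are the main laminin receptors of the fiber, dystroglycan within the dystrophin-glycoprotein complex, and syndecan-4 is a known surface marker of satellite cells. An αv integrin, paired with the β3 chain, is also known as a binding site for thyroid hormone at the cell surface.

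Levels are given as CPM, the share of a gene in the unique molecular identifiers (UMIs, each a captured RNA molecule) summed over the cells of a class in a library, scaled to the total as the deposited values are. A class held cells in which its fixed marker genes were the most prominent, and its name ends in "-like" for that reason. Levels are compared within a gene only, since they were not scaled for gene length. A ratio is described as called when it was at least 1.5-fold either way, rested on at least 100 UMIs in both pools together and came from at least 20 cells in each pool. All intervals cover counting error only, not the spread between mice.

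The 6 libraries held 2283944 to 23497518 UMIs, with a median of 3634 to 8055 UMIs per cell, in the 11207 cells used. The files hold 9062 further cell columns after the first alphabetical run of barcodes, and 1152 columns of the uninjured control file and 528 of the uninjured hypothyroid file repeat cells used here as hypothyroid 14 dpi (1152 of 1650) and control 5 dpi (528 of 2428). These further columns were left out, and values of those 2 libraries rest on cells that the files also place in another condition. Whether each first run belongs to its label could not be checked. In the first runs 12 barcodes occurred in more than 1 library. Fibro-adipogenic progenitor (FAP)-like cells were the largest class over all libraries together, with 321 to 1694 cells per library, and myogenic progenitor-like cells numbered 21 to 145. Of the hypothyroid 5 dpi cells gated as mural-like, 15 of 22 lay in a cluster named for myogenic progenitors and 6 in the mural cluster, and the summed mural markers stood at 2877 CPM against 21900.0 CPM in the control library, so that pool goes against its name and is described by its gate only. No dendritic-like cell lay in a cluster of that name, and 113 of the 215 control monocyte/macrophage-like cells at 5 dpi lay in unnamed clusters, against 40 of 569 hypothyroid cells.

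Each receptor gene had its own distribution over cell classes. Itgb1 was found in stromal, vascular and myogenic classes and in T-like and NK-like cells, and was lowest in B-like cells (49 and 32.8 CPM in control and 0 and 20.8 CPM in hypothyroid libraries at 0 and 5 dpi), while Itga6 was centred on endothelial-like cells, Itga5 on FAP-like cells, Itga7 on myogenic and mural-like cells, and Dag1 on glial-like and, after injury, myogenic cells. In uninjured control muscle myogenic progenitor-like cells held 24.6 CPM of Dag1, at rank 7 of 8 classes. B-like cells had no UMI of Itga1, Itga5 or Itga7 in any of the 4 libraries with at least 20 such cells, and 0 of the 102057 UMIs of the largest of these pools allows up to 29.4 CPM.

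**Figure D1:**
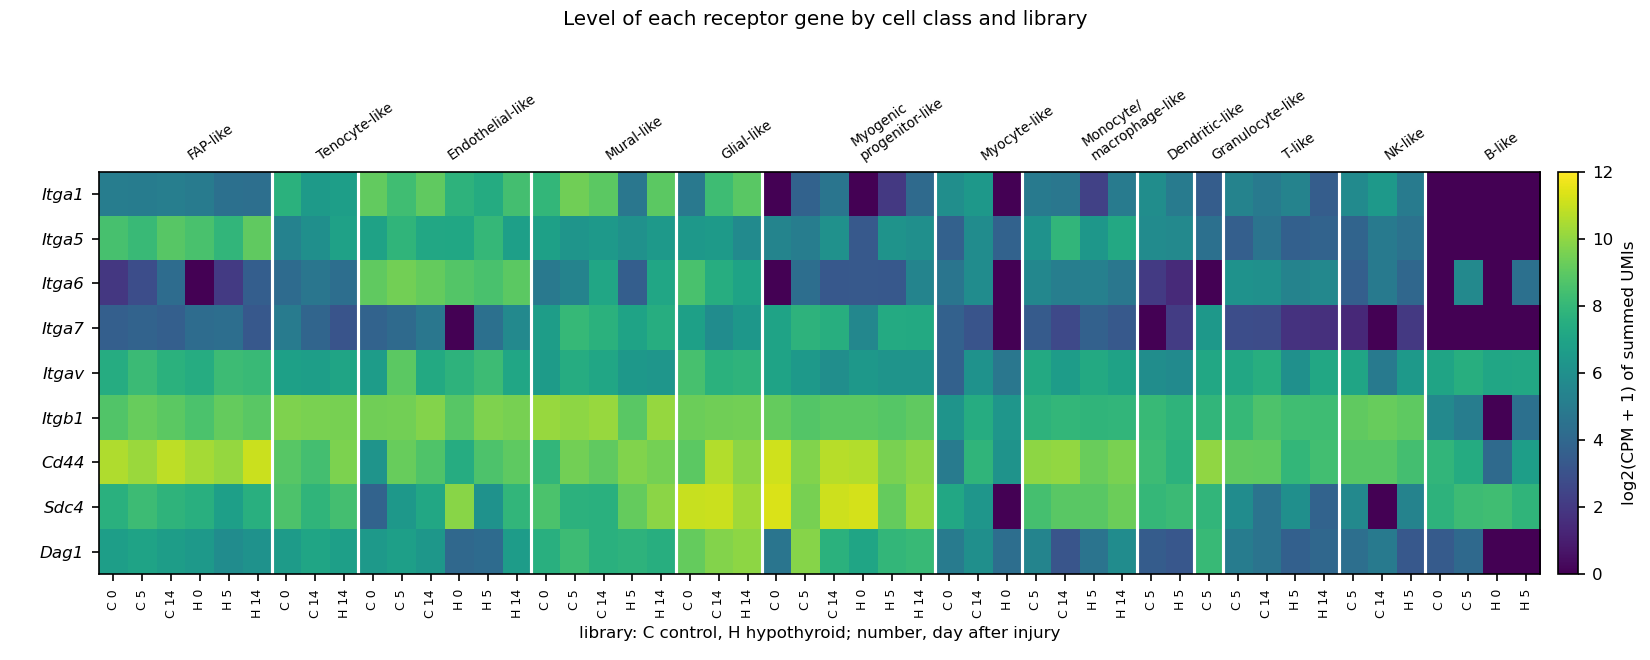
Level of the 9 receptor genes (rows) as log2(CPM + 1) of summed UMIs in every pool of cell class and library with at least 20 cells (columns, ordered by class, with C for control, H for hypothyroid and the day after injury). Itga6 is brightest in the endothelial-like columns, Itga5 in the FAP-like columns, Sdc4 in the glial-like and myogenic progenitor-like columns, and the B-like columns are darkest for Itga1, Itga5 and Itga7.

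Between diets, no receptor ratio was called in uninjured muscle (0 of 12 member and class pairs tested, against 15.8% of all gene and class pairs, 6.75% higher and 9.05% lower). At 5 dpi 17 of 45 pairs were called, 2 higher and 15 lower in hypothyroid cells, which is 37.8% against 37.7% of all pairs (9.3% higher and 28.4% lower). At 14 dpi 15 of 49 were called, 5 higher and 10 lower, or 30.6% against 19.8% of all pairs (7.28% higher and 12.5% lower). The receptor share at 5 dpi was thus that of any gene, and what follows is a description of single receptors. Without the mural-like class, 14 of 40 pairs were called at 5 dpi (1 higher, 13 lower, against 37% of all pairs) and 13 of 41 at 14 dpi (4 higher, 9 lower, against 18%). By class, the share of all genes called at 5 dpi was 34.6% in FAP-like, 30% in endothelial-like, 32.2% in myogenic progenitor-like, 41.2% in monocyte/macrophage-like and 72.7% in mural-like cells. At 14 dpi these classes had 15.1%, 13.5%, 24.1%, 26.4% and 41.6%, tenocyte-like cells 28.9%, T-like cells 17.5% and glial-like cells 19.3%. FAP-like and endothelial-like cells gave 8990 and 5556 of the 23642 pairs of all genes, but 9 and 9 of the 49 receptor pairs. The 30.6% and 19.8% at 14 dpi thus weigh the classes differently.

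The median gene was not at a ratio of 1 at 5 dpi: over all genes tested it was 0.802 in FAP-like, 0.854 in myogenic progenitor-like, 0.904 in endothelial-like and 0.845 in monocyte/macrophage-like cells, a log2 shift of -0.32, -0.23, -0.15 and -0.24. In T-like and NK-like cells the median was 0.804 and 0.805. At 14 dpi it lay at 0.956 in FAP-like and 0.906 in myogenic progenitor-like cells. Divided by these medians, 5 pairs were higher and 13 lower at 5 dpi (30.6% of all pairs called), and 5 higher and 10 lower at 14 dpi (19.1%). When log2(CPM + 1) was averaged over cells instead, the splits were 12 higher and 11 lower at 5 dpi (37.2%) and 19 higher and 4 lower at 14 dpi (39.3%), so the balance of directions depends on the scale. Of the 91 ratios called over diets and days, 18 changed direction on that scale, as given with the genes and in the closing section.

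The order of classes was taken at 14 dpi, where the control library gave 10 and the hypothyroid library 8 classes, and neighbours in it are said to stand apart where their counting intervals did not overlap. In the control library Dag1 was highest in glial-like cells, apart from the rest, followed by myogenic progenitor-like and mural-like cells, which did not stand apart from each other, and then tenocyte-like (133 CPM), FAP-like and endothelial-like cells (79.7 CPM). The last place was held by monocyte/macrophage-like cells at 7.93 CPM. The hypothyroid order began in the same way, with glial-like cells apart from myogenic progenitor-like cells.

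For Sdc4, myogenic progenitor-like and glial-like cells led the control library without standing apart, well above monocyte/macrophage-like cells, and NK-like cells had no UMI of it. In the hypothyroid library glial-like, myogenic progenitor-like and mural-like cells shared the lead. Cd44 was led in the control library by FAP-like, myogenic progenitor-like and glial-like cells, which did not stand apart in turn, and in the hypothyroid library by FAP-like cells alone. In the control library Itgb1 was apart from the next class in mural-like cells, at the top, and between T-like (400.2 CPM) and monocyte/macrophage-like cells (248 CPM). In the hypothyroid library mural-like cells were again apart at the top, and the next gap was between FAP-like and T-like cells. Itga1 was led in the control library by endothelial-like and mural-like cells, and in the hypothyroid library by mural-like, glial-like and endothelial-like cells, with no gap between neighbours. In both libraries Itga5 was led by FAP-like cells, apart from the next class, and Itga7 by mural-like and myogenic progenitor-like cells, not apart from each other.

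**Figure D2:**
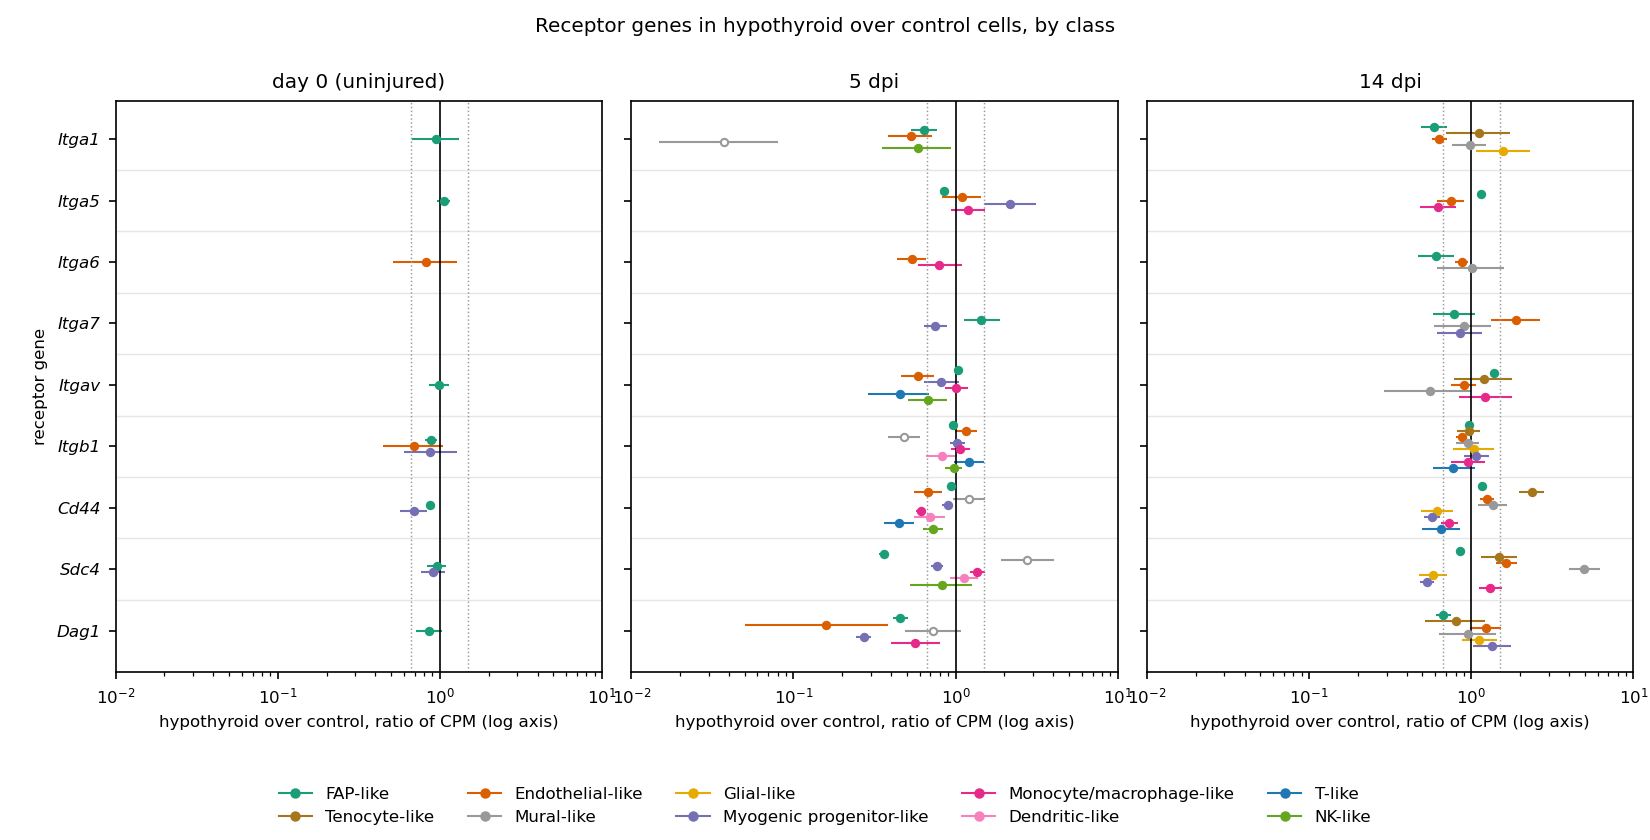
Ratio of hypothyroid over control CPM (log axis) for each receptor gene at 0, 5 and 14 dpi, 1 point for each cell class with at least 100 UMIs in both pools together. Bars are 95% counting intervals, dotted lines mark 1.5-fold, and open grey points are the mural-gated pool at 5 dpi that goes against its name; the Itgb1 points of the other classes lie close to 1 while the Dag1 points at 5 dpi lie below it.

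Itgb1, the chain that all these α subunits share, differed little between diets. In FAP-like cells it was at 434, 600.4 and 502 CPM in the control libraries at 0, 5 and 14 dpi and 383, 580.5 and 487 CPM in the hypothyroid libraries. Its ratio of hypothyroid over control there was 0.967 (95% interval 0.93 to 1.01) at 5 dpi and 0.971 (95% interval 0.931 to 1.01) at 14 dpi. The diets were also close in myogenic progenitor-like cells, with 566, 441 and 496 CPM in control and 495, 452 and 533 CPM in hypothyroid libraries over the same days, and 1.03 (95% interval 0.922 to 1.14) as the ratio at 5 dpi. Of 8 classes tested at 5 dpi only the mural-gated pool was called, at 0.481, and at 14 dpi none of 8 was, with ratios of 0.775 to 1.08.

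The level of Itgb1 in mural-like cells was 1116, 1001 and 1140.5 CPM in the control libraries and 1086 CPM in the hypothyroid library at 14 dpi, the highest of any class in each of these libraries. In FAP-like cells the ratio of 5 over 0 dpi was 1.38 (95% interval 1.31 to 1.46) in control and 1.52 (95% interval 1.4 to 1.65) in hypothyroid cells, of which only the hypothyroid ratio was called. Whether these changes differ was not tested.

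The collagen receptor chain Itga1 was an endothelial and mural gene. Endothelial-like cells held 552, 317 and 534 CPM in the control libraries at 0, 5 and 14 dpi and 218, 168 and 339 CPM in the hypothyroid libraries. At each day the hypothyroid value was the lower, with a called ratio of 0.53 (95% interval 0.383 to 0.719) at 5 dpi and 0.635 (95% interval 0.57 to 0.706) at 14 dpi. Over the 8 ways of processing that gave a value, called settings here, the ratio at 5 dpi ranged from 0.265 to 0.586, all past 1.5-fold, while 5 of 9 passed at 14 dpi, with a range of 0.612 to 0.839. The hypothyroid pool at 5 dpi held 35 cells against 138 in control, with summed FAP markers at 686 against 248 CPM and monocyte/macrophage markers at 490.5 against 39.6 CPM, and their part in this and the other endothelial ratios at 5 dpi was not tested. The uninjured hypothyroid pool rested on 14 UMIs in 28 cells and was too small for a call.

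FAP-like cells held much less of it, 32.8, 32.1 and 33.7 CPM in control and 30.9, 20.4 and 19.9 CPM in hypothyroid libraries, and here too the hypothyroid pools were lower after injury, by ratios of 0.637 (95% interval 0.53 to 0.768) at 5 dpi and 0.591 (95% interval 0.489 to 0.711) at 14 dpi. Both kept their direction in all 11 settings, although only 4 and 6 of these passed 1.5-fold. Divided by the median gene, the ratio at 5 dpi fell short of the rule. In glial-like cells at 14 dpi the ratio was the other way, 1.57 (95% interval 1.07 to 2.3), from 55 and 60 UMIs. The mural-gated pool at 5 dpi had 7 UMIs of Itga1 against 119 in control, a ratio of 0.0376; at 14 dpi, where 27 of 41 hypothyroid cells lay in the mural cluster, it was 0.976 (95% interval 0.762 to 1.24). NK-like cells at 5 dpi had 21 UMIs in hypothyroid and 131 in control cells, a called ratio of 0.586 (95% interval 0.351 to 0.933). Of 9 settings 4 passed 1.5-fold, and divided by the median gene the ratio fell short of the rule.

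The fibronectin receptor chain Itga5 was highest in FAP-like cells in 5 of 6 libraries, at 359, 277 and 472 CPM in the control libraries at 0, 5 and 14 dpi and 379, 235 and 544 CPM in the hypothyroid libraries. By summed counts it was lowest at 5 dpi and highest at 14 dpi in both diets. The hypothyroid ratio of 5 over 0 dpi, 0.619 (95% interval 0.568 to 0.676), was 2.24 on the scale of mean log2 values. The change from 5 to 14 dpi was called in both, 1.7 (95% interval 1.61 to 1.8) in control and 2.32 (95% interval 2.22 to 2.42) in hypothyroid cells, although on the scale of mean log2 values the control ratio was 0.772. Between diets the whole FAP-like class had ratios of 0.846 (95% interval 0.798 to 0.897) at 5 dpi and 1.15 (95% interval 1.11 to 1.2) at 14 dpi, neither called. In FAP-like cells without a UMI of Pi16, a fibroblast progenitor marker, the 14 dpi ratio was 1.57 (95% interval 1.43 to 1.72), past 1.5-fold. In cells with a UMI of Pi16 it was 1.07 (95% interval 1.03 to 1.12). Myogenic progenitor-like cells had a called higher ratio at 5 dpi, 2.16 (95% interval 1.51 to 3.15), from 32.6 and 70.4 CPM. That call did not hold among cells of middle depth (between the 25th and 75th percentile of UMIs), where it was 0.881. Monocyte/macrophage-like cells at 14 dpi had 148 CPM in hypothyroid and 238 CPM in control cells, a ratio of 0.622 (95% interval 0.482 to 0.809) that turned to 1.59 after cells were thinned to 1000 UMIs and to 1.26 on the scale of mean log2 values.

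Of the laminin receptor chains, Itga6 was led by endothelial-like cells in every library, with 532, 692 and 569.7 CPM in the control libraries at 0, 5 and 14 dpi and 436, 370.4 and 498 CPM in the hypothyroid libraries. At 5 dpi the hypothyroid level was lower, 0.536 (95% interval 0.433 to 0.658), and the ratio was closer to 1 at 14 dpi, 0.874 (95% interval 0.797 to 0.957). FAP-like cells had 2.81, 6.25 and 18.1 CPM in control and 0, 3.07 and 11 CPM in hypothyroid libraries, so that the called ratio of 0.607 (95% interval 0.468 to 0.781) at 14 dpi concerns a level of under 20 CPM; endothelial markers in those pools summed to 119.7 CPM (hypothyroid) and 158 CPM (control), and their part in it was not tested. Thinned to 1000 UMIs per cell, that ratio was 1.19.

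Itga7, the laminin receptor chain of muscle, stood at 123, 215 and 184 CPM in the control libraries at 0, 5 and 14 dpi and 46.7, 161 and 156 CPM in the hypothyroid libraries in myogenic progenitor-like cells. Hypothyroid values were the lower at each day, but the ratios of 0.751 (95% interval 0.638 to 0.885) at 5 dpi and 0.847 (95% interval 0.617 to 1.16) at 14 dpi did not reach 1.5-fold. The uninjured values rested on 5 hypothyroid and 15 control UMIs, the median gene at 5 dpi was itself at 0.854, and the 14 dpi interval includes 1. Mural-like cells, in which the gene is known from smooth muscle, had 100.4, 259 and 199.9 CPM in control libraries and 179 CPM in the hypothyroid library at 14 dpi, a ratio of 0.895 (95% interval 0.586 to 1.33). The only called ratio between diets was in endothelial-like cells at 14 dpi, 1.88 (95% interval 1.32 to 2.66), at levels of 48.9 and 26.1 CPM. Summed mural markers there were 3222 and 3405 CPM, and in cells of middle depth the ratio was 0.605 and after thinning to 1000 UMIs 0.967.

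The RGD-binding chain Itgav had its highest level in glial-like, endothelial-like or FAP-like cells, depending on the library. In endothelial-like cells it was 98.5, 509.8 and 154 CPM in the control libraries at 0, 5 and 14 dpi and 218, 298 and 139 CPM in the hypothyroid libraries. It was highest at 5 dpi in both diets, and the change from 0 to 5 dpi was called in control, 5.18 (95% interval 3.11 to 9.32), and not in hypothyroid cells, 1.37 (95% interval 0.774 to 2.61); the difference between these was not tested. At 5 dpi the hypothyroid over control ratio was 0.585 (95% interval 0.46 to 0.737). It became 1.71 when all cell columns of each file were used.

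FAP-like cells had 172, 287 and 202 CPM in the control libraries at 0, 5 and 14 dpi and 171, 297 and 279 CPM in the hypothyroid libraries of Itgav. The rise from 0 to 5 dpi was called in both diets, 1.66 (95% interval 1.53 to 1.81) in control and 1.74 (95% interval 1.54 to 1.98) in hypothyroid cells. At 5 dpi the diets were close, 1.04 (95% interval 0.981 to 1.1). At 14 dpi the control level was back near that of uninjured muscle while the hypothyroid level was 1.38 (95% interval 1.3 to 1.47) times as high, which is under the 1.5-fold rule. T-like cells at 5 dpi had 64.9 CPM in hypothyroid and 144 CPM in control cells, a called ratio of 0.452 (95% interval 0.289 to 0.682) from 27 and 163 UMIs. Mural-like cells at 14 dpi had a called ratio of 0.56 (95% interval 0.289 to 0.996).

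Cd44, the receptor for hyaluronan, was strongest in FAP-like and myogenic progenitor-like cells. FAP-like cells had 1535, 1176 and 1806 CPM in the control libraries at 0, 5 and 14 dpi and 1332, 1105 and 2094 CPM in the hypothyroid libraries, a dip at 5 dpi and a peak at 14 dpi in both diets. The control ratio of 14 over 5 dpi, 1.54 (95% interval 1.49 to 1.58), was 0.585 on the scale of mean log2 values. The ratios between diets there, 0.939 (95% interval 0.913 to 0.966) at 5 dpi and 1.16 (95% interval 1.14 to 1.18) at 14 dpi, were small. In myogenic progenitor-like cells the levels were 2263, 860.0 and 1675 CPM in control and 1559.5, 768 and 954 CPM in hypothyroid libraries. The control level had returned to 1675 CPM by 14 dpi and the hypothyroid level to 954 CPM, a called ratio of 0.569 (95% interval 0.508 to 0.638). The ratio of 5 over 0 dpi was 0.38 (95% interval 0.332 to 0.436) in control and 0.493 (95% interval 0.42 to 0.581) in hypothyroid cells, the hypothyroid one turning to 9.44 on the scale of mean log2 values.

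Monocyte/macrophage-like and T-like cells of hypothyroid muscle held less Cd44 at 5 dpi. Among monocyte/macrophage-like cells the 5 dpi level was 612 CPM under the hypothyroid and 998 CPM under the control diet, a called ratio of 0.613 (95% interval 0.573 to 0.656), and 0.733 (95% interval 0.652 to 0.825) at 14 dpi, not called. The 5 dpi ratio kept its direction in all 11 settings and passed 1.5-fold in 7. Divided by the median gene, it fell short of the rule. Split by C1qa, a complement gene of mature macrophages, the 5 dpi ratio was 0.827 in cells with a UMI of it (487 hypothyroid and 92 control cells) and 0.641 in cells without (82 and 123). Control levels were 713 CPM in cells with and 1316 CPM in cells without, and hypothyroid levels 590 and 844 CPM. The part of this makeup in the ratio of the whole class was not tested. T-like cells had 545 and 512 CPM in control and 245 and 332 CPM in hypothyroid libraries at 5 and 14 dpi, called at both days with 0.449 (95% interval 0.361 to 0.555) and 0.648 (95% interval 0.495 to 0.853), the last of which was 1.2 on the scale of mean log2 values. In NK-like cells the ratio at 5 dpi was 0.724 (95% interval 0.626 to 0.835), short of the rule. Glial-like cells at 14 dpi had 963 CPM under the hypothyroid and 1561 CPM under the control diet, 0.617 (95% interval 0.491 to 0.771), a ratio that was 1.78 on the scale of mean log2 values.

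Tenocyte-like cells went the other way. At 14 dpi they held 797 CPM (95% interval 693 to 913) under the hypothyroid diet and 337 CPM (95% interval 302 to 375) under the control diet, giving a ratio of 2.37 (95% interval 1.98 to 2.82) that passed 1.5-fold in all 9 settings. The hypothyroid pool held 34 cells, 22 of 34 with a UMI of Cd44, and its summed monocyte/macrophage markers were 770.5 CPM against 62.2 CPM in control, so that RNA of such cells moved with the result. Its part in it was not tested.

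In endothelial-like cells Cd44 was low in uninjured muscle and higher after injury in both diets, at 72.2, 597 and 413 CPM in the control libraries at 0, 5 and 14 dpi and 171, 405 and 516 CPM in the hypothyroid libraries. The ratio of 5 over 0 dpi was 8.26 (95% interval 4.58 to 16.6) in control and 2.36 (95% interval 1.27 to 4.86) in hypothyroid cells, against 11 and 11 UMIs at 0 dpi, and the hypothyroid ratio became 0.843 with all cell columns. That setting adds the repeated cells of control 5 dpi to the uninjured hypothyroid pool, so it cannot judge this ratio. The diets differed by 0.678 (95% interval 0.551 to 0.829) at 5 dpi and 1.25 (95% interval 1.13 to 1.37) at 14 dpi, neither called.

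Sdc4 and Dag1 had the lowest ratios between diets in FAP-like cells at 5 dpi, and the stretch before the start of each gene is shown for that reason, chosen after the values were seen. Both come from RefSeq promoter windows (build GRCm38.p6), found again at a single place in GRCm39, and run 5′ to 3′ on the minus strand, cut to the part outside annotated exons. Capitals mark AGGTCA, the core element bound by thyroid hormone receptors, and GGGCGG, the GC box. The Sdc4 stretch is at chr2:164285262-164285358, within the annotated span of the gene since its outermost start lies further upstream, and that of Dag1, from its distal start, at chr9:108141165-108141407.
Sdc4: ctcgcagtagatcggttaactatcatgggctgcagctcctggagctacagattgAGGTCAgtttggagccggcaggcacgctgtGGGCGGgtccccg
Dag1: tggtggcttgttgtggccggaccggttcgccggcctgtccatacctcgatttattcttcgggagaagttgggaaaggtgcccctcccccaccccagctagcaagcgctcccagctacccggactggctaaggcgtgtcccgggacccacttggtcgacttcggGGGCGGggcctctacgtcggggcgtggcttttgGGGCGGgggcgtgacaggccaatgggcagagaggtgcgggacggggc

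Windows of 250 bases were found for 7 of the 9 genes, and Sdc4 was the only one with AGGTCA on either strand, a motif held by 14% of all 32851 windows. GC boxes stood in the windows of Sdc4, Dag1, Itga5 and Itgb1 and in 32.7% of all windows. The E-box CAGCTG, which 13% of windows hold, was found for Itga1 and the AP-1 site TGACTCA, held by 4.46%, for none. A match of letters says nothing of binding.

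Sdc4 was a gene of myogenic and glial cells, with a lower level in FAP-like and monocyte/macrophage-like cells. In FAP-like cells it was at 195, 297 and 221 CPM in the control libraries at 0, 5 and 14 dpi and 187, 108 and 189 CPM in the hypothyroid libraries. The uninjured pools were close, 0.957 (95% interval 0.837 to 1.09), but at 5 dpi the control level stood above that of uninjured muscle, and the hypothyroid level below it by summed counts, though not in cells of middle depth or on mean log2 values. The ratio of the diets at 5 dpi was 0.363 (95% interval 0.339 to 0.389). At 14 dpi the ratio of the whole class was 0.857 (95% interval 0.803 to 0.914), not called. The 5 dpi ratio kept its direction and passed 1.5-fold in all 11 settings, with a range of 0.222 to 0.644.

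The split of FAP-like cells by Pi16, a marker of progenitor-type fibroblasts, gave the same direction on both sides. Cells with a UMI of Pi16 had 362 CPM of Sdc4 (control) and 118 CPM (hypothyroid), and cells without had 242 and 101 CPM, ratios of 0.325 and 0.416. The split did not make the diets equal in Pi16. Cells with a UMI of Pi16 held 938 CPM of it in control and 513 CPM in hypothyroid muscle, a ratio of 0.547. The part of this difference in the Sdc4 ratio was not tested. Myogenic progenitor markers, which name cells high in Sdc4, summed to 39.9 CPM in the control and 36.7 CPM in the hypothyroid FAP-like pool, with 7 of 7 markers present in each. FAP markers themselves were at 45620.0 and 33360.0 CPM and monocyte/macrophage markers at 60.1 and 323 CPM in control and hypothyroid pools. Their part in the result was not tested.

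In myogenic progenitor-like cells Sdc4 was at 2590.5, 751 and 2157 CPM in the control libraries at 0, 5 and 14 dpi and 2363, 574 and 1147 CPM in the hypothyroid libraries. From 0 to 5 dpi it was lower in both diets, 0.29 (95% interval 0.255 to 0.331) in control and 0.243 (95% interval 0.212 to 0.279) in hypothyroid cells. By 14 dpi the control level was 2.87 (95% interval 2.62 to 3.15) times that at 5 dpi and the hypothyroid level 2.0 (95% interval 1.81 to 2.2) times, which left a called ratio of 0.532 (95% interval 0.48 to 0.589) between diets. The 14 dpi ratio passed 1.5-fold in all 10 settings. At 0 and 5 dpi the diets differed by 0.912 (95% interval 0.77 to 1.08) and 0.765 (95% interval 0.702 to 0.834), neither called.

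The 14 dpi pools differed in makeup as well. Myocyte markers summed to 19000.0 CPM in the control and 4997 CPM in the hypothyroid pool, and the cells had a median of 4514 and 8586 UMIs. Among cells without a UMI of Myog, the factor of committed myocytes, the Sdc4 ratio was 0.501 and the Cd44 ratio 0.583. In cells with a UMI of Myog, 7 hypothyroid and 5 control cells, they were 1.27 and 1.04. Myog itself was at 1988 CPM in these hypothyroid cells and 933 CPM in these control cells.

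Glial-like cells had 2024 and 2119.9 CPM of Sdc4 in control libraries at 0 and 14 dpi and 1237 CPM in the hypothyroid library at 14 dpi, a called ratio of 0.584 (95% interval 0.478 to 0.709) from 38 control and 23 hypothyroid cells that was 1.12 on the scale of mean log2 values. Monocyte/macrophage-like cells had the opposite direction, with 355 and 481 CPM in control and 485 and 628 CPM in hypothyroid libraries at 5 and 14 dpi. Their ratios of 1.36 (95% interval 1.23 to 1.51) and 1.31 (95% interval 1.11 to 1.54) did not reach 1.5-fold, with the median gene of the class at 0.845 at 5 dpi. In cells with a UMI of C1qa the 5 dpi ratio was 1.57 (95% interval 1.36 to 1.83), past 1.5-fold. In cells without, it was 1.41 (95% interval 1.17 to 1.69). At 14 dpi the ratios with and without were 1.22 (95% interval 1.02 to 1.48) and 0.743 (95% interval 0.457 to 1.2).

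In the vascular classes some Sdc4 values rested on few cells. In mural-like cells at 14 dpi it was 966 CPM (95% interval 823 to 1127) in hypothyroid and 194 CPM (95% interval 165 to 226) in control muscle, a ratio of 4.98 (95% interval 3.98 to 6.24). In the hypothyroid pool 13 of 41 cells had a UMI and 1 cell held 52 of the 162 UMIs; without the richest cell of each pool the ratio was 4.16. Summed mural markers were 12520.0 CPM in that pool against 21970.0 CPM in control, and their part was not tested. In endothelial-like cells the uninjured hypothyroid value of 918 CPM came from 3 of 28 cells, with 55 of 59 UMIs in 1 cell, and the called ratio of 1.64 (95% interval 1.41 to 1.9) at 14 dpi became 0.737 in cells of middle depth.

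Dag1, which encodes both chains of dystroglycan, had the ratio furthest from 1 of the 7 receptors tested between diets in myogenic progenitor-like cells at 5 dpi. Myogenic progenitor-like cells had 24.6, 904 and 199.6 CPM in the control libraries at 0, 5 and 14 dpi and 131, 245 and 267 CPM in the hypothyroid libraries. The control library at 5 dpi stood alone, at 904 CPM (95% interval 850.0 to 960.1) against 245 CPM (95% interval 225 to 265) in the hypothyroid library, a ratio of 0.271 (95% interval 0.244 to 0.3). It came from 1052 UMIs in 89 control cells and 570 UMIs in 145 hypothyroid cells, and 81 of 89 and 126 of 145 cells held at least 1 UMI of the gene. All 10 settings kept the direction and passed 1.5-fold, with a range of 0.249 to 0.43. At 14 dpi the ratio was 1.34 (95% interval 1.02 to 1.76), not called.

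Over time, control myogenic progenitor-like cells went from 3 UMIs of Dag1 in 28 cells at 0 dpi to the peak at 5 dpi, a ratio of 36.8 (95% interval 12.5 to 178) whose interval is wide because of the count at 0 dpi, and then to 0.221 (95% interval 0.176 to 0.274) of it at 14 dpi. In hypothyroid cells the ratios were 1.87 (95% interval 1.11 to 3.44) and 1.09 (95% interval 0.9 to 1.31). The first turned to 0.495 when all cell columns were used. In that setting the uninjured hypothyroid pool also holds the repeated cells of control 5 dpi, where Dag1 was highest, so it cannot judge this ratio.

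The lower level at 5 dpi was seen on both sides of a split by Myog. Cells with a UMI of Myog had 767 CPM of Dag1 in control (19 cells) and 299 CPM in the hypothyroid library (22 cells), a ratio of 0.39. Cells without had 949 and 236 CPM, a ratio of 0.249. Itgb1 in the same cells had ratios of 1.1 and 0.987. The split did not make the diets equal in Myog. Cells with a UMI of Myog held 1896 CPM of it in the control and 635 CPM in the hypothyroid library, a ratio of 0.335. The part of this difference in the Dag1 ratio was not tested. Glial markers, which name the other cells high in Dag1, were at 6.87 CPM in both pools. The class's own markers were at 1949 CPM in the control and 919.9 CPM in the hypothyroid pool (7 of 7 present in each), FAP markers at 2059 and 1267 CPM, and monocyte/macrophage markers at 29.2 and 104 CPM. Myocyte markers stood at 3414 CPM in the control (9 of 9 present) and 277 CPM in the hypothyroid pool (8 of 9, Myh1 at 0), and mural markers at 918 and 696 CPM (6 and 5 of 8 present). Their part in the result was not tested.

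**Figure D3:**
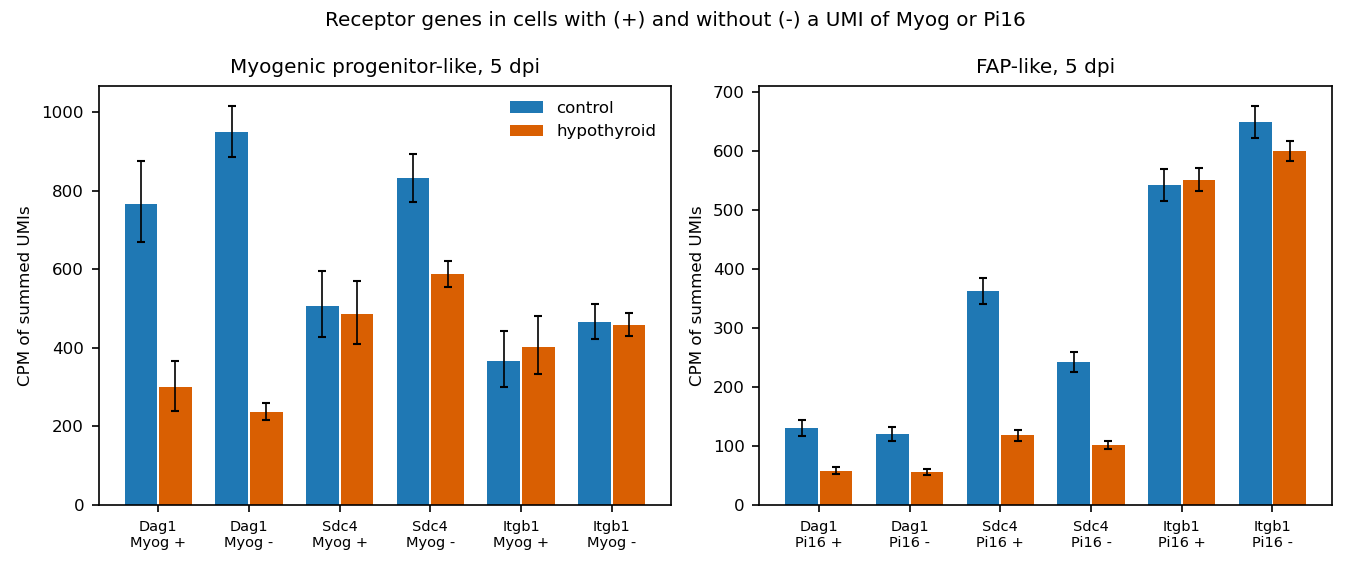
CPM of Dag1, Sdc4 and Itgb1 at 5 dpi in myogenic progenitor-like cells with (+) and without (-) a UMI of Myog (left) and in FAP-like cells with and without a UMI of Pi16 (right), for control (blue) and hypothyroid (orange) libraries. Bars start at 0 and error bars are 95% Poisson intervals; the Dag1 bars of hypothyroid cells are lower in all 4 subsets, the Sdc4 bars lower in both FAP-like subsets, and the Itgb1 bars close in height.

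FAP-like cells had 105, 125 and 103 CPM in the control libraries at 0, 5 and 14 dpi and 90.2, 57 and 69.2 CPM in the hypothyroid libraries of Dag1. The 3 hypothyroid values were all below the 3 control values, with ratios of 0.86 (95% interval 0.71 to 1.04) at 0 dpi, 0.457 (95% interval 0.413 to 0.505) at 5 dpi, which was called, and 0.673 (95% interval 0.608 to 0.745) at 14 dpi, just short of the rule. In both Pi16 subsets the 5 dpi ratio was about the same, 0.447 and 0.468. Endothelial-like cells at 5 dpi had 5 UMIs in 35 hypothyroid cells against 98 in 138 control cells, 0.159 (95% interval 0.0505 to 0.384), and monocyte/macrophage-like cells a ratio of 0.563 (95% interval 0.401 to 0.8) that became 1.14 under the stricter gate. Dag1 was thus below 1 in the 5 classes tested at 5 dpi and called in 4 of them. The 1 not called, at 0.725, was the mural-gated pool that goes against its name, so it does not count as a separate class. At 14 dpi Dag1 was called in 0 of 6, with ratios of 0.673 to 1.34.

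In glial-like cells, where dystroglycan is known as the laminin receptor of Schwann cells, Dag1 was at 567 CPM in uninjured control muscle and at 874 and 981 CPM at 14 dpi in control and hypothyroid muscle. The ratio at 14 dpi was 1.12 (95% interval 0.876 to 1.44). These pools held 43, 38 and 23 cells.

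**Figure D4:**
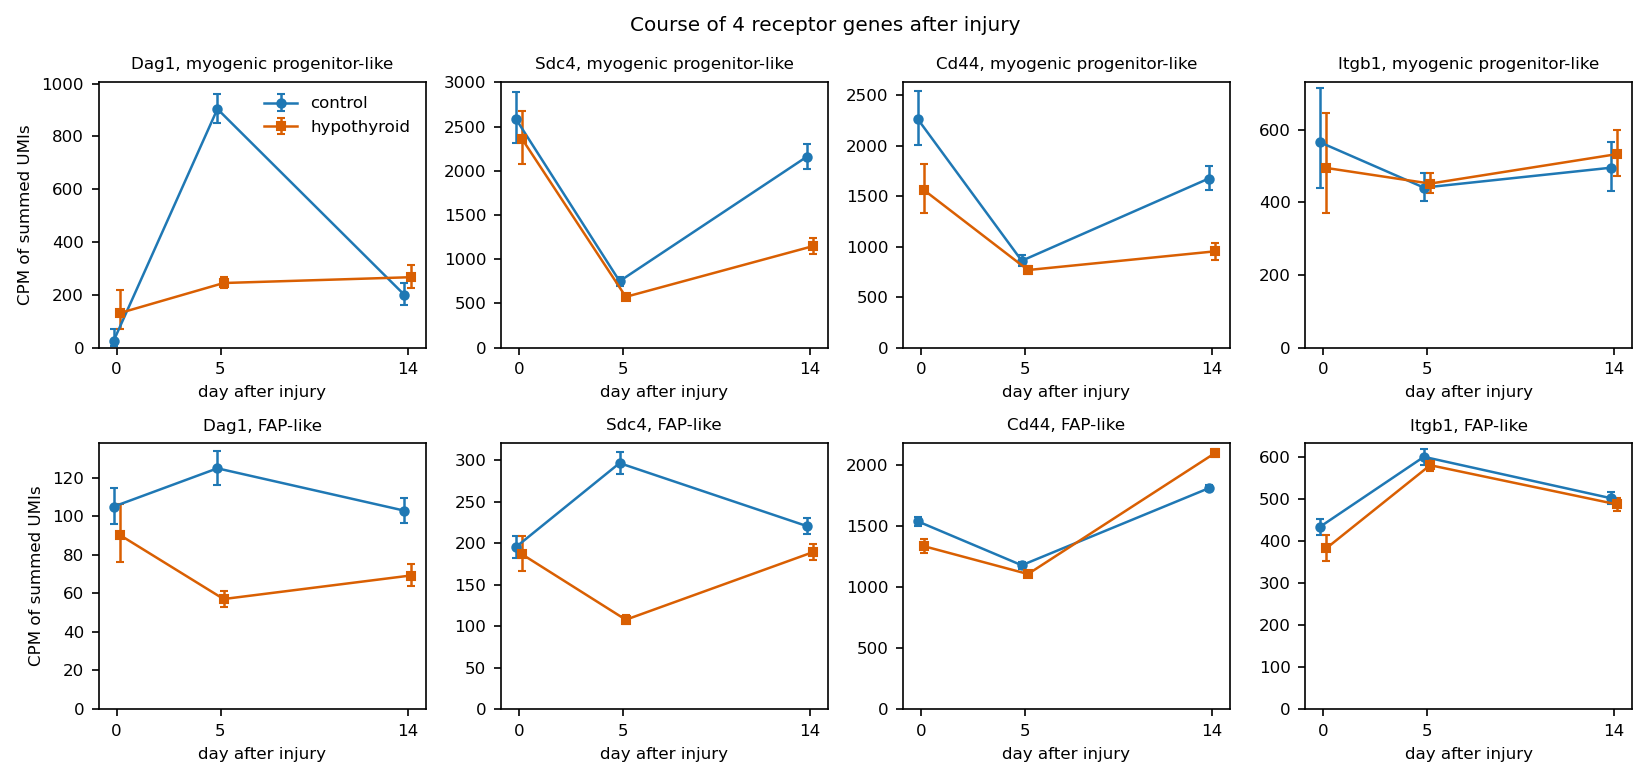
CPM of Dag1, Sdc4, Cd44 and Itgb1 (columns) at 0, 5 and 14 days after injury in myogenic progenitor-like (top) and FAP-like cells (bottom), with control libraries as blue circles, hypothyroid libraries as orange squares and 95% Poisson intervals as bars; each point is 1 library. The Dag1 peak of control myogenic cells at 5 dpi and the Sdc4 peak of control FAP-like cells have no counterpart in the hypothyroid libraries, while the Itgb1 lines run together.

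Counted over classes, the receptors were called over time about as often as other genes. From 0 to 5 dpi 13 of 25 pairs were called in control (9 higher, 4 lower, against 54% of all pairs, 31.3% higher and 22.7% lower) and 13 of 19 in hypothyroid muscle (7 higher, 6 lower, against 61.2%, 29.7% higher and 31.5% lower). From 5 to 14 dpi it was 18 of 44 in control (12 higher, 6 lower, against 41.8%, 17.9% higher and 23.9% lower) and 15 of 36 in hypothyroid muscle (12 higher, 3 lower, against 38.6%, 20.5% higher and 18.1% lower). The 5 dpi libraries enter both sets, so the sets are not independent. Sdc4 in FAP-like cells was called in opposite directions from 0 to 5 dpi, 1.52 (95% interval 1.4 to 1.65) in control and 0.577 (95% interval 0.509 to 0.655) in hypothyroid cells, and then 0.744 and 1.76 from 5 to 14 dpi. The hypothyroid fall to 5 dpi was not seen in cells of middle depth, 1.05, or on the scale of mean log2 values, 1.02, and median depth in these pools was 4370 UMIs at 0 dpi and 13974 at 5 dpi.

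Genes that work with these receptors were counted by lists. Of the other integrin subunits, 16 of 30 pairs were lower and none higher in hypothyroid cells at 5 dpi, against 37.7% of all pairs called, with a median ratio of 0.619. Among them Itga4, the chain of the VCAM1 and fibronectin receptor on leukocytes, was 0.246 (95% interval 0.193 to 0.311) in dendritic-like and 0.261 (95% interval 0.197 to 0.345) in monocyte/macrophage-like cells, and Itgb7, the β chain it can pair with, was 0.182 (95% interval 0.139 to 0.238) in the latter. These pools differed in makeup. T and NK markers in dendritic-like cells summed to 75.9 and 52.3 CPM in the control and 0 and 13.5 CPM in the hypothyroid library. Of monocyte/macrophage-like cells, 113 of 215 control and 40 of 569 hypothyroid cells lay in unnamed clusters. The part of makeup in these ratios was not tested. Itgb3, the β chain of the αv integrin known to bind thyroid hormone, was 0.607 (95% interval 0.371 to 0.955) in endothelial-like cells, a gene named for that role and not for its size of change. At 14 dpi 1 of 14 was higher and 4 lower, against 19.8%. The higher one was Itgax, a chain of the complement receptor of macrophages and dendritic cells, at 4.23 (95% interval 2.59 to 7.38) in monocyte/macrophage-like cells.

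Other cell surface matrix receptors were lower in 12 and higher in 1 of 26 pairs at 5 dpi, against 37.7% of all pairs called (28.4% lower). In FAP-like cells the collagen receptor Ddr2 was 0.535 (95% interval 0.498 to 0.574) and syndecan-1 (Sdc1) 0.456 (95% interval 0.402 to 0.518), while the glypican Gpc3 was higher, 1.95 (95% interval 1.66 to 2.29). At 14 dpi 5 were higher and 5 lower of 26, against 19.8% of all pairs, among them Lyve1, the hyaluronan receptor of lymphatic vessels, at 0.124 (95% interval 0.0558 to 0.243) in endothelial-like cells.

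For the partners of dystroglycan, 5 of 16 pairs of the dystrophin-glycoprotein complex were lower and none higher at 5 dpi, or 31.2% against 37.7% of all pairs, with a median of 0.784. At 14 dpi 2 of 16 were lower, or 12.5% against 19.8%, so the list was called no more often than other genes. The list's ratios at 5 dpi included sarcospan (Sspn), 0.526 (95% interval 0.36 to 0.769) in myogenic progenitor-like and 0.59 (95% interval 0.493 to 0.707) in FAP-like cells.

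Adhesion adaptors and kinases inside the cell were lower in 33 and higher in 1 of 77 pairs at 5 dpi, or 44.2% against 37.7% of all pairs, with a median of 0.692. The mural-gated pool that goes against its name gave 4 of the 77 pairs, all 4 lower. At 14 dpi the adaptors and kinases were higher in 8 and lower in 5 of 68, or 19.1% against 19.8%. Zyxin (Zyx), a protein of focal adhesions, was 0.413 (95% interval 0.374 to 0.455) in FAP-like cells at 5 dpi. Matrix ligands went both ways, with 16 higher and 22 lower of 70 pairs at 5 dpi (54.3% against 37.7% of all pairs) and 13 higher and 25 lower of 87 at 14 dpi (43.7% against 19.8%). The mural-gated pool gave 8 of the 70 pairs at 5 dpi, 3 higher and 4 lower. Tenascin-C (Tnc), a matrix protein of healing tissue, was 2.83 (95% interval 2.59 to 3.1) and osteopontin (Spp1), which binds αv integrins and CD44, 3.6 (95% interval 2.53 to 5.22) in FAP-like and 4.94 (95% interval 3.78 to 6.57) in monocyte/macrophage-like cells at 14 dpi. Monocyte/macrophage markers in these FAP-like pools summed to 128.7 CPM (hypothyroid) and 37.5 CPM (control), and their part was not tested. Of 20 ligands tested in FAP-like cells 2 were higher and 4 lower at 14 dpi. At 5 dpi 0 of 20 were higher there and 5 lower, Spp1 with the largest fold.

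Over the 50 pools of class and library with at least 20 cells, the genes most like each receptor by Pearson correlation of log2(CPM + 1) were, among 7506 genes, Flt1 (0.76), Emcn (0.77) and Adgrg1 (0.78) for Itga6, Mical2 (0.86), Notch3 (0.85) and Wtip (0.82) for Itga7, and Hs2st1 (0.86), Phlda1 (0.84) and Cdkn1c (0.84) for Dag1. Itga5 was most like Tnfrsf1a, Rhoc and Abhd5 (0.86 to 0.87), Itgb1 like Cd9, Raph1 and Capn2 (0.83 to 0.84), and Cd44 like Slc39a14, Igf2bp2 and Anxa5 (0.79 to 0.84). For Itga1 they were Aplp2, Csrp1 and Frmd4b (0.76 to 0.80), for Sdc4 Sdad1, Utp14a and Ppp4r2 (0.74 to 0.80), and for Itgav Zdhhc20, Degs1 and Togaram1 (0.71 to 0.72). Pools share libraries, depth and class, so these values describe the table only. Between receptors the closest pairs were Itga7 with Dag1 (0.81) and Itga5 with Itgb1 (0.72).

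On the mouse genome (GRCm39) Itga5 lies on chromosome 15 from 103252713 to 103275191, Itga7 on chromosome 10 from 128769645 to 128794156, Itgb1 on chromosome 8 from 129412135 to 129459682 and Itga1 on chromosome 13 from 115089632 to 115238501. Chromosome 2 carries Itga6 (71575960 to 71688761), Itgav (83554741 to 83637261), Cd44 (102641486 to 102732011) and Sdc4 (164266167 to 164285808), and chromosome 9 carries Dag1 (108081833 to 108141158). Pelo and Gm49395 overlap Itga1 on the same strand and have no values here, so reads of that overlap cannot be assigned with certainty.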

How the data were processed

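RNA of single cells from tibialis anterior muscle was sequenced by the authors with 10x Chromium 3′ chemistry, 1 library for each diet and day, and processed in Partek Flow with the Cell Ranger aligner on mm39 with a GENCODE annotation. The deposited values are log2(CPM + 1) per cell, the CPM of a cell summing to 999975 to 1000028, and 12436 genes are listed. UMI counts were recovered by taking the most frequent positive value of a cell as 1 UMI: 99.934% of 39334018 positive values came out whole within 0.05 UMI, or 0.1% of larger counts. Cell columns after the first alphabetical run of barcodes were left out.

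A cell joined the class whose markers were most prominent, with at least 2 markers seen, and 557 cells stayed unnamed. Myocyte-like and erythroid-like cells also needed 10% of their UMIs in the markers. That condition was added after a first gate had put many more cells in the myocyte class and receptor levels had been seen. No doublet caller was run. Leiden clusters (20 components, 2000 variable genes, 15 neighbours, resolution 1) served as an alternative.

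UMIs were summed per class and library, and ratios of CPM given with exact binomial intervals and levels with exact Poisson intervals (95%). The floor for a count of 0 was 3 UMIs. All 9 receptors are named, from each list of related genes up to 3 with the largest fold per comparison, and for each receptor the 3 genes most like it among those with at least 1000 UMIs. Receptors and lists were chosen with earlier results of these data known. The result of 1 list of related genes is not reported here. Alternatives were means over cells, centring, clusters, a stricter gate, all columns, thinning and other thresholds; those by depth, by a marker's UMI, without the richest cell and without the mural-like class were chosen after seeing the data. Scripts were tested on simulated data. The tools were scanpy 1.11.5 with igraph 0.11.9 for clusters, scipy 1.17.1 for intervals, matplotlib 3.10.9 for plots, and pandas 2.3.3 and numpy 2.4.6 under Python 3.11.15.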

Additional observations from a re-analysis of the deposited data

Results flagged for a closer look

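Sdc4 in FAP-like cells moved in opposite directions from 0 to 5 dpi in the 2 diets, with a ratio of 1.52 in the control libraries and 0.577 in the hypothyroid libraries. The hypothyroid ratio was 1.05 in cells of middle depth and 1.02 on mean log2 values, so the opposite direction did not hold in those settings. The difference was not tested, since there was 1 library per diet and day. The cell columns left out of the comparisons held the receptors too, with a CPM summed over the 9 genes of 2886 against 2624 in the cells used.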

How the results depend on the processing

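Of the 91 ratios called, 61 kept their direction in every setting. No paired analysis was possible because there was 1 library per group and no test. The counts below are given without the share over all genes at the same setting, which can change along with the number of pairs tested. They describe how far the calls depend on processing, and are not set against other genes. Each count below is of receptor and class pairs called, in the order hypothyroid over control at 0, 5 and 14 dpi, then 5 over 0 dpi in control and hypothyroid, then 14 over 5 dpi in control and hypothyroid muscle, which were 0, 17, 15, 13, 13, 18 and 15. With no UMI minimum they were 20, 36, 26, 21, 21, 29 and 24, and after thinning to 1000 UMIs per cell 1, 8, 2, 4, 3, 8 and 5. In cells of middle depth (25th to 75th percentile), which leave fewer pairs to test, the last 6 were 11, 4, 4, 3, 11 and 5. At 2-fold they were 10, 2, 7, 5 and 7 for the diets at 5 and 14 dpi, both changes to 5 dpi and the control change to 14 dpi. On mean log2 values they were 6 and 23 for the diets at 0 and 14 dpi and 22 and 33 for the control changes. For the diets at 0 dpi the count was 1 on mean CPM, 2 with clusters, 13 with all columns, 2 without the richest cell and 3 at 50 UMIs, and the hypothyroid change to 5 dpi gave 7 under the stricter gate. With all columns, both uninjured pools also hold the repeated cells of another condition, so that setting cannot judge comparisons with 0 dpi.

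Ratios that turned between diets on mean log2 values were those at 14 dpi of Itga5 in monocyte/macrophage-like (1.26), Cd44 in T-like (1.2) and glial-like (1.78) and Sdc4 in glial-like cells (1.12). From 0 to 5 dpi they were Itga1 in control endothelial-like (1.71) and, in hypothyroid cells, Itga1 (1.33), Itga5 (2.24), Sdc4 (1.02) and Dag1 (1.59) in FAP-like and Cd44 in myogenic cells (9.44). From 5 to 14 dpi they were, in control, Itga5 (0.772) and Cd44 (0.585) in FAP-like, Itga1 (0.868) and Sdc4 (0.771) in endothelial-like and Itga1 (0.625) and Sdc4 (0.647) in NK-like cells, and, in hypothyroid mural-like cells, Itgb1 (0.655) and Sdc4 (0.113). Mean CPM turned 3 changes to 14 dpi, Sdc4 in control endothelial-like (0.670), Itga1 in control NK-like (0.728) and Sdc4 in hypothyroid mural-like cells (0.996). Clusters turned those of Itga6 in control FAP-like (0.982) and Itga5 in hypothyroid endothelial-like cells (1.06), and the stricter gate turned Dag1 in monocyte/macrophage-like cells between diets at 5 dpi (1.14). All columns turned Itgav in endothelial-like cells between diets at 5 dpi (1.71), Itga1 (1.15, control) and Cd44 (0.843, hypothyroid) in endothelial-like and Dag1 in hypothyroid myogenic cells (0.495) from 0 to 5 dpi, and Itga6 in mural-like (0.834) and Sdc4 in NK-like cells (0.868) to 14 dpi in control. Those from 0 to 5 dpi have repeated cells of another condition in their 0 dpi pools. Thinning turned, between diets at 14 dpi, Itga6 in FAP-like (1.19), Itga7 in endothelial-like (0.967) and Itga5 in monocyte/macrophage-like cells (1.59), and from 0 to 5 dpi Itga1 in control endothelial-like (1.3) and Itga5 in hypothyroid myogenic cells (0.681). Middle depth turned Itga5 in myogenic cells at 5 dpi (0.881) and Itga7 (0.605) and Sdc4 (0.737) in endothelial-like cells at 14 dpi between diets, Sdc4 in hypothyroid FAP-like cells to 5 dpi (1.05) and Itga6 in control FAP-like cells to 14 dpi (0.679). The cause was not tested. With 1 library per group, the spread between mice is unknown, and classes with few cells could not be judged.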
